A study of Mus musculus with 24 samples.

Results

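The heat-shock chaperones described here are 10 genes, taken by their symbols from the 21671 genes listed for every sample, with the same 10 rows found in each of the 24 samples. They are the stress-inducible Hsp70 genes Hspa1a and Hspa1b, the constitutive Hsp70 gene Hspa8, the Hsp110 gene Hsph1, the J-domain gene Dnajb1, the Hsp90 gene Hsp90aa1, the small heat-shock protein gene Hspb1, the mitochondrial chaperonin genes Hspd1 and Hspe1, and the endoplasmic reticulum (ER) Hsp70 gene Hspa5. RNA was sequenced from the spleens of C57/Bl6 mice, 8 weeks old, that were either mock-treated or taken 4 h after whole-body ionizing radiation (IR) at 7 Gy. Mice were Trp53+/+ or Trp53-/-, the latter carrying the p53 KO (p53Δ) allele in every cell of the body, so that the genotypes of the immune cells and of the rest of the animal cannot be told apart. B cells were those retained on B220 magnetic beads, and non-B cells were the flow-through of the same columns, enriched in T cells, after lysis of red cells. Each of the 8 combinations of cell type, genotype and treatment held 4 Trp53+/+ or 2 Trp53-/- samples. The study describes its RNA-Seq samples as mice, and the labels do not say whether a B and a non-B sample with the same number came from 1 animal, so p-values measure the spread between these samples only.

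Heat-shock proteins are molecular chaperones that hold, refold or release other proteins. Hsp70 binds exposed stretches of a client in a cycle driven by ATP, J-domain proteins such as Dnajb1 hand clients to it, Hsp110 proteins such as Hsph1 exchange its nucleotide, and Hsp90 acts later on clients such as kinases and steroid receptors. Most of these genes are targets of heat-shock factor 1, which binds inverted repeats of the triplet GAA in their promoters, whereas Hspa5 is a target of the unfolded protein response of the ER.

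Values are RPKM, in which the reads of a gene are divided by its length and by the total of exonic reads. The estimated depth of the samples ranged from 4.70 to 10.84 M (mega) exonic reads, with a median of 8.66 M. A single read is worth between 0.0315 and 0.0727 RPKM for Hspa1a and between 0.0895 and 0.206 RPKM for Hspb1, the shortest member, over these depths. Trp53 RPKM lay between 35 and 65.8 in Trp53+/+ samples and between 21.6 and 41.8 in Trp53-/- samples, so transcripts were counted over the Trp53 gene in both genotypes. The p53 target Cdkn1a separated the groups, with 69.6 to 97.8 RPKM in irradiated Trp53+/+ samples, 0.893 to 5.87 in their mock samples and 0.562 to 2.63 in all Trp53-/- samples. All 10 B cell markers were higher in B than in non-B cells of the mock Trp53+/+ mice, and 9 of 10 T cell markers were lower. The share of 1434 olfactory and vomeronasal receptor genes listed above 0 RPKM, a measure of reads outside the genes these cells use, was 5.30 to 9.21% in mock samples, 6.76 to 13% in irradiated Trp53-/- samples and 6.97 to 51.3% in irradiated Trp53+/+ samples. Replicates 1 and 2 of the irradiated Trp53+/+ B cells, at 36.7% and 47.2%, and replicates 3 and 4 of the irradiated Trp53+/+ non-B cells, at 51.3% and 35.8%, stood highest.

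The promoters are shown first, since the members fall into groups by the elements they hold. RefSeq windows of the 250 bases before a gene start (build GRCm38.p6) were given for 8 members in 11 windows. They were searched for TTCNNGAA and GAANNTTC, the pairs of inverted GAA triplets of a heat-shock element, which read the same on both strands and can overlap. A pair stood in 7 of the 11 member windows and in 12.8% of the 32851 windows of all genes. These 7 windows belonged to 6 of the 8 members. A run of 3 triplets in turn, TTC and GAA alternating with 2 bases between them, stood in the windows of Hspe1 and Hspd1 and in 0.466% of all windows. These matches describe letters and were not tested as binding sites. Capitals mark the pairs below, and each line runs 5′ to 3′ on the strand of its gene.
Hspa1a: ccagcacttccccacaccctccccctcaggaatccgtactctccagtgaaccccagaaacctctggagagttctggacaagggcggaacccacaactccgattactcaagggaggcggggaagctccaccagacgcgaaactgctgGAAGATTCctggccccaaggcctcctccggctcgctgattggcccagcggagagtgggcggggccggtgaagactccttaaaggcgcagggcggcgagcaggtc
Hspa1b: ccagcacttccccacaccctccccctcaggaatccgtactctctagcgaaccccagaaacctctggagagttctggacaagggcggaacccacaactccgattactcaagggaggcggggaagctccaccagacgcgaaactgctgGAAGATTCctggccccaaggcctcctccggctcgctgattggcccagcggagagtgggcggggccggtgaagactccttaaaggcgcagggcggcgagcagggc
Hspe1: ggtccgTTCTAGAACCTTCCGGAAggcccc
Hsph1: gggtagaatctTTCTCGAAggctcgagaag
Hspb1: gaGAAGTTTCcagatgggggcaGAACCTTC
The Hspa1a stretch lies at chr17:34972157-34972406 and that of Hspa1b at chr17:34959239-34959488, both on the minus strand. They differ at 3 of 250 positions, counted from 1 at the 5′ end and given as Hspa1a base, position and Hspa1b base, C44T, T47C and T249G. Neither stretch is in an annotated exon. The Hspe1 site, at chr1:55088053-55088082 on the plus strand, lies in an annotated exon 66 to 95 bases before the Hspe1 start, and also stands, on the opposite strand, in a window of Hspd1, which is transcribed the other way. The Hsph1 site, at chr5:149636351-149636380 on the minus strand, is in an annotated exon, and the Hspb1 site, at chr5:135887800-135887829 on the plus strand, is not. The ER stress element, CCAAT and CCACG with 9 bases between them, searched on both strands, stood in 1 member, Hspa5, and in 0.113% of all windows. Its site, at chr2:34772019-34772048 on the plus strand and in an annotated exon, is shown with the element in capitals.
Hspa5: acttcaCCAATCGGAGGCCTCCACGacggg
Dnajb1 held none of these elements in its windows.

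The levels of the chaperones spanned a wide range in these mock and irradiated spleen cells. The medians of Hspa5, Hsp90aa1 and Hspa8 over the 24 samples were 109, 100.4 and 87.3 RPKM, above 99.3 to 99.7% of all genes. Hspd1, Hspe1, Dnajb1 and Hsph1 had medians of 54.3, 49.7, 35.5 and 15.7 RPKM, whereas Hspb1, Hspa1a and Hspa1b had medians of 0.865, 2.11 and 3.46 RPKM. The medians of Hspa1a and Hspa1b may be understated, since these genes share much of their sequence, as described below. The highest and the lowest group mean differed by 1.38-fold for Hspa8, 1.45-fold for Hspa5, 1.75-fold for Hspe1 and 1.86-fold for Hsp90aa1, against 57.3-fold for Hspa1a and 31.4-fold for Hspa1b. The highest group mean belonged to irradiated Trp53-/- cells for all 10 members, in B cells for Hspa8, Hspa5, Hsp90aa1, Hspe1 and Hspd1 and in non-B cells for the other 5. Samples of that group overlapped those of the next group for every member. For Hspa8, Hspa5, Hspa1a and Hspa1b the next group was irradiated Trp53+/+ cells of the same type. The means were 111 against 110, 137 against 134, 13.7 against 11.7 and 18.5 against 12.7 RPKM, in that order. For the others it was irradiated Trp53-/- cells of the other cell type. With the 8 group means in order, neighbouring groups overlapped in their samples for all 7 neighbours of Hspa8 and Hspb1. For each of the others between 1 and 3 of the 7 neighbours were apart.

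**Figure D1:**
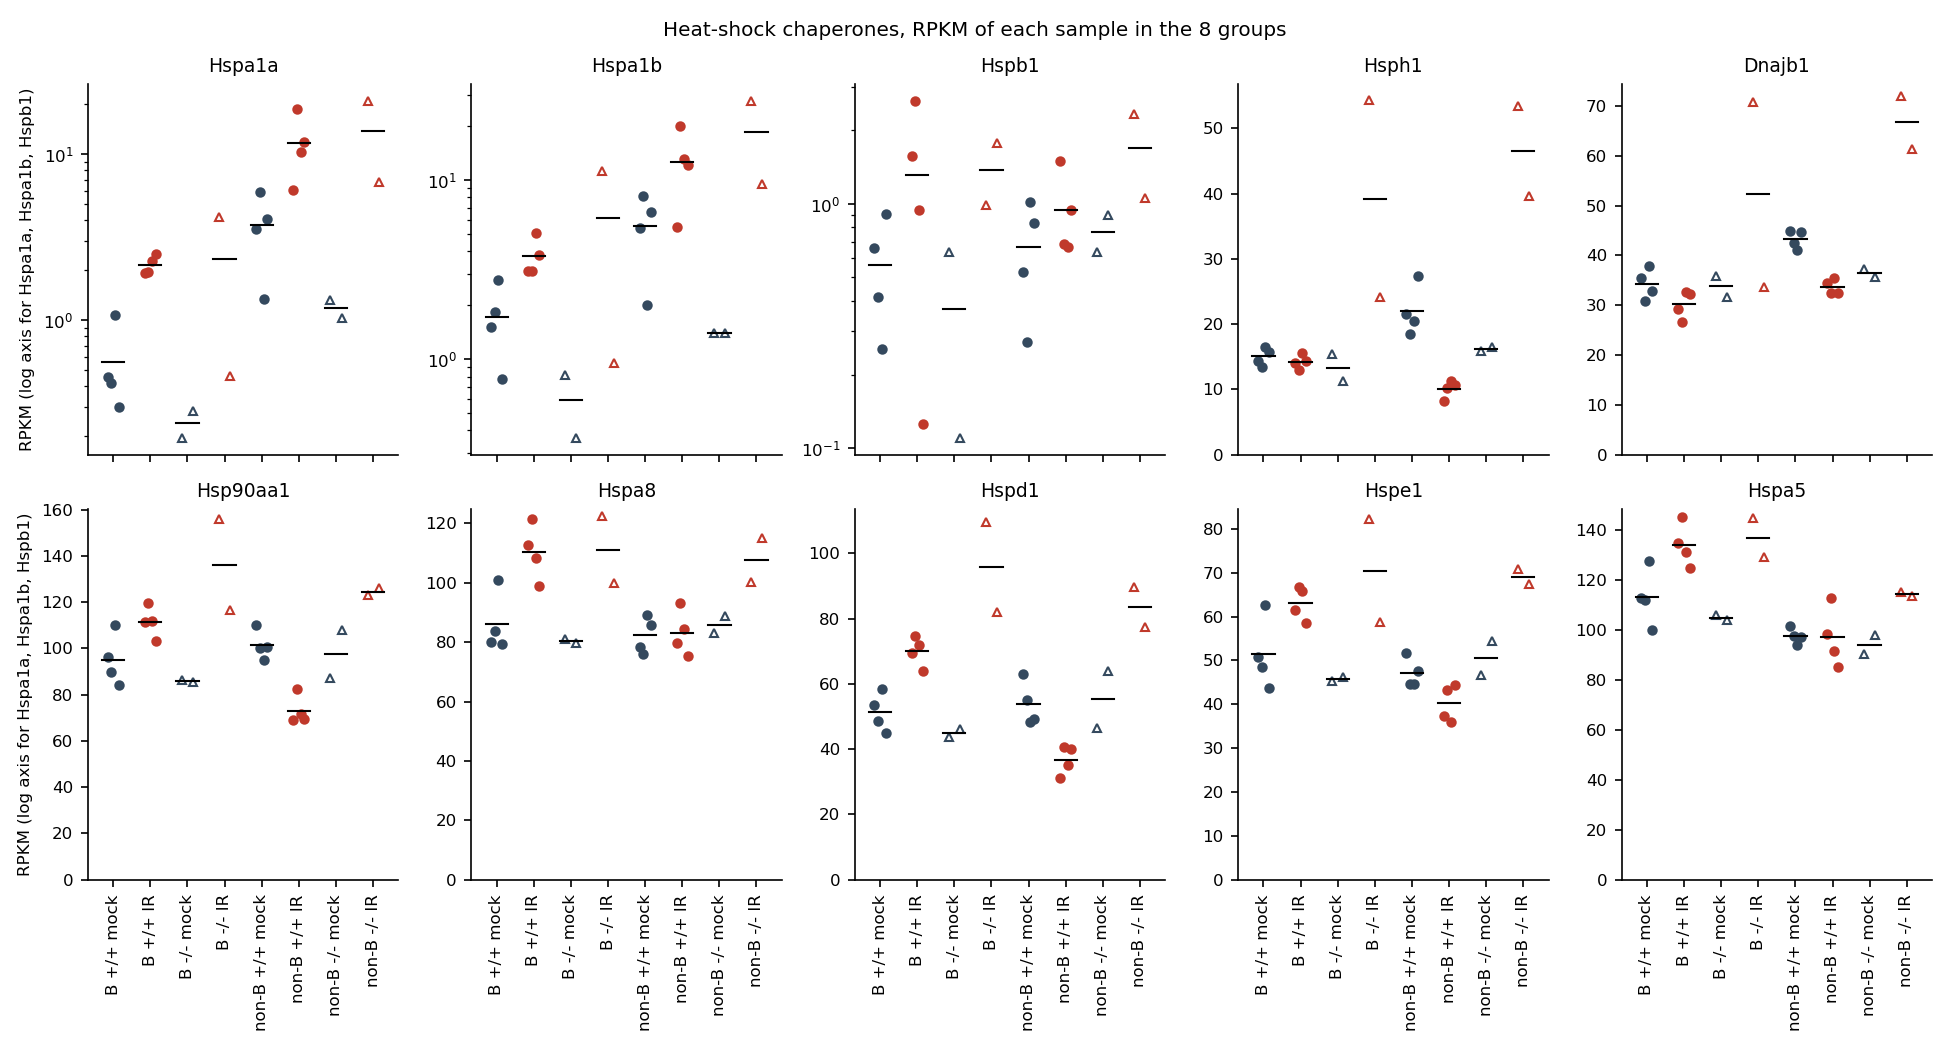
RPKM of each member (vertical axes, logarithmic for Hspa1a, Hspa1b and Hspb1 and from 0 for the others) in the 8 groups of cell type, genotype and treatment; filled circles are Trp53+/+ samples, open triangles Trp53-/- samples, red is IR, dark grey is mock, and lines are group means. Hsph1 lies between 39.7 and 53.4 RPKM in irradiated Trp53-/- non-B cells and between 8.18 and 11.3 in irradiated Trp53+/+ non-B cells.

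The response to IR was tested with limma on log2(RPKM + 0.5), in 1 fit over the 12 samples of each cell type, and all fold changes below are on that scale, which understates changes of the low genes. A gene was called when its Benjamini-Hochberg adjusted p was below 0.05 and its log2 fold change was beyond 0.58 in either direction, and a difference between responses when its adjusted p was below 0.05, whatever its size. In these bulk samples, a change in the cells that make up a population and a change of RNA per cell cannot be told apart. In Trp53+/+ B cells, 1 of 10 members was called, Hspa1a, which rose, where 24.7% of the 13821 genes tested were called (12.5% upward and 12.2% downward). In Trp53-/- B cells, 6 of 10 members rose, Hspa1a, Hspa1b, Hsph1, Hsp90aa1, Hspd1 and Hspe1, where 24.3% of all genes were called (13.1% upward and 11.2% downward). Without replicate 1 of the irradiated Trp53-/- B cells this count was 2, and without mock replicate 1 it was 3. In Trp53+/+ non-B cells, Hspa1a rose and Hsph1 fell, where 9.85% of the 14018 genes were called (5.74% upward and 4.11% downward). Dnajb1 and Hsph1 rose in Trp53-/- non-B cells, where 0.442% of all genes were called (0.193% upward and 0.25% downward). These 2 calls stand among only 62 genes of the whole table, and without mock replicate 1, mock replicate 2 or irradiated replicate 1 of the Trp53-/- non-B cells no gene at all was called.

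In non-B cells, 4 of 10 members had a positive log2 fold change in Trp53+/+ and 10 of 10 in Trp53-/- cells, and Hsph1 was the member called in opposite directions. The median log2 fold change of the members was -0.12 in Trp53+/+ and 0.67 in Trp53-/- non-B cells, beside medians of -0.03 and -0.02 over all genes tested. In B cells the members' medians were 0.33 in Trp53+/+ and 0.86 in Trp53-/- cells, beside 0.01 and 0.02 over all genes. By the samples themselves, all 10 members were higher in both irradiated than in both mock samples of Trp53-/- non-B cells (23.5% of all genes, with 25.3% lower), and 9 of 10 in Trp53-/- B cells (39.5%, with 32% lower), the exception being Dnajb1. With 4 samples on each side, 5 members lay lower without overlap in irradiated Trp53+/+ non-B cells (12.1% of all genes), Hsp90aa1, Dnajb1, Hsph1, Hspe1 and Hspd1, and Hspa1a lay higher (10% of all genes). In Trp53+/+ B cells Hspa1a, Hspa1b and Hspd1 lay higher without overlap (22.9% of all genes), and none lay lower (23.3%).

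**Figure D2:**
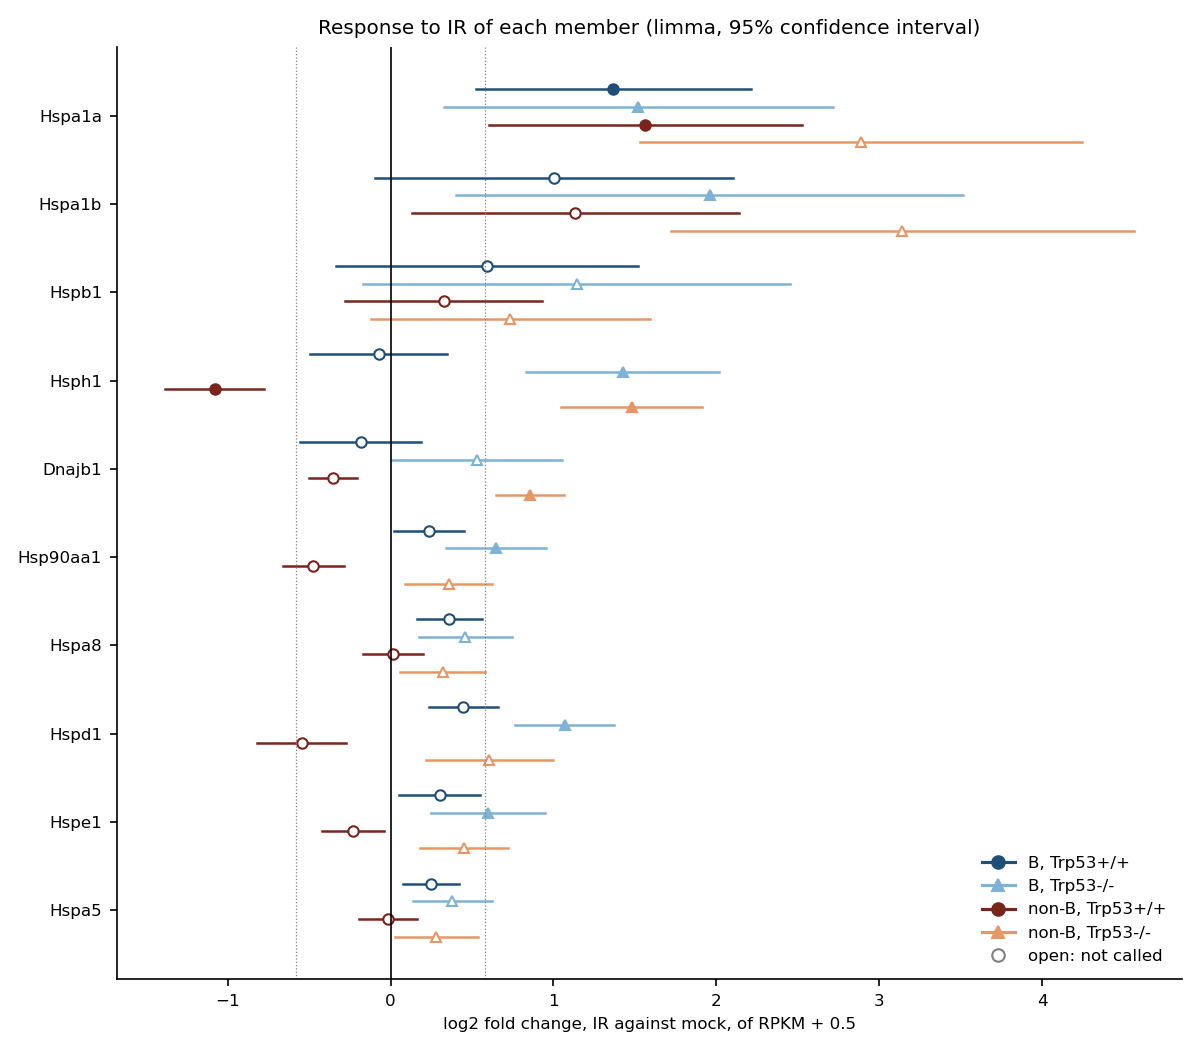
log2 fold change of RPKM + 0.5 after IR for each member in the 4 combinations of cell type and genotype; bars are 95% confidence intervals from limma, filled symbols are called genes and dotted lines mark a log2 fold change of 0.58 in either direction. Hsph1 is at -1.08 in Trp53+/+ and at 1.48 in Trp53-/- non-B cells.

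Hspa1a and Hspa1b encode almost the same inducible Hsp70, and their genes lie 9960 bases apart on chromosome 17 of NCBIM37 (the genome release that mm9 represents), at 35106144-35109069 and 35093381-35096183. Of the 50-base pieces of the annotated Hspa1a transcript, 59.4% also occur in Hspa1b transcripts, and 61.2% the other way. Whether reads of the shared part were split between the genes or left out is uncertain, so both levels may be understated. Their summed RPKM is given as well, and it would not restore reads that were left out. Hspa1a was at 0.452, 0.42, 1.08 and 0.298 RPKM in mock Trp53+/+ B cells and at 1.91, 1.93, 2.28 and 2.49 RPKM after IR. Every irradiated sample was above every mock sample. It was at 0.195 and 0.284 RPKM in mock Trp53-/- B cells and at 4.17 and 0.46 RPKM after IR. The irradiated samples lay above the mock samples, but replicate 1 was 9.07-fold above replicate 2. Hspa1a was at 3.55, 5.92, 1.34 and 4.07 RPKM in mock Trp53+/+ non-B cells and at 6.10, 18.6, 10.3 and 11.7 RPKM after IR. It was at 1.33 and 1.03 RPKM in mock Trp53-/- non-B cells and at 20.7 and 6.73 RPKM after IR. Neither genotype overlapped between treatments, and the 6 irradiated non-B samples were the highest of the series.

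Hspa1a rose by a log2 fold change of 1.37 (SE 0.39, adjusted p = 0.0108 from limma) in Trp53+/+ B cells and by 1.52 (SE 0.55, adjusted p = 0.043) in Trp53-/- B cells. The second value was 0.38 (adjusted p = 0.519) without irradiated replicate 1 and 2.66 without irradiated replicate 2, and its call was lost in 13 of 22 other settings, 10 of them with adjusted p-values between 0.0506 and 0.079. Hspa1a rose by 1.56 (SE 0.44, adjusted p = 0.0308) in Trp53+/+ non-B cells. That call was lost without mock replicate 1 or 3 or irradiated replicate 2, 3 or 4, with adjusted p-values between 0.052 and 0.0768, and without the 2 irradiated samples with the most receptor genes, with 1.55 and an adjusted p of 0.115, and with the receptor share as a covariate, with 1.84 and 0.119. In Trp53-/- non-B cells the log2 fold change of Hspa1a was 2.89 (SE 0.62, adjusted p = 0.0728) and that of Hspa1b 3.14 (SE 0.65, adjusted p = 0.0692), neither past the threshold; without mock replicate 3 of the Trp53+/+ non-B cells Hspa1b was called, with an adjusted p of 0.0479.

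Hspa1b was at 1.52, 1.82, 2.75 and 0.779 RPKM in mock Trp53+/+ B cells and at 3.11, 3.11, 5.09 and 3.81 RPKM after IR. The irradiated samples lay above the mock samples, and the log2 fold change was 1.00 (SE 0.51, adjusted p = 0.116 from limma), not past the threshold. Without either irradiated Trp53-/- sample, and so with a smaller shared spread, the same fold change had an adjusted p of 0.0101 or 0.00945, and 0.0104 with the Trp53+/+ samples fitted alone. Hspa1b was at 0.815 and 0.363 RPKM in mock Trp53-/- B cells and at 11.3 and 0.954 RPKM after IR. It rose by 1.96 (SE 0.72, adjusted p = 0.045), a value of 0.45 (adjusted p = 0.546) without irradiated replicate 1 and 3.47 without irradiated replicate 2, and the call was lost in 14 of 22 settings. Hspa1b was at 5.40, 8.16, 2.00 and 6.61 RPKM in mock Trp53+/+ non-B cells and at 5.48, 20.1, 13.1 and 12.1 RPKM after IR, with overlap and an adjusted p of 0.103. In Trp53-/- non-B cells, it was at 1.4 RPKM in both mock samples and at 27.5 and 9.50 RPKM after IR.

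The summed RPKM of Hspa1a and Hspa1b was 1.97, 2.24, 3.83 and 1.08 in mock Trp53+/+ B cells and 5.02, 5.05, 7.37 and 6.29 after IR. All irradiated sums were above all mock sums, a difference of 1.29 on the log2 scale (two-sided exact permutation test over 70 assignments, n = 4 each, p = 0.0286, the smallest p this design allows). In Trp53+/+ non-B cells the sums were 8.95, 14.1, 3.34 and 10.7 in mock and 11.6, 38.7, 23.4 and 23.8 after IR. The groups overlapped, with a difference of 1.39 and an exact permutation p of 0.0571. In Trp53-/- non-B cells the sums went from 2.73 and 2.43 to 48.3 and 16.2, and in Trp53-/- B cells from 1.01 and 0.647 to 15.5 and 1.41. The mean of the sums was higher after IR in all 4 combinations of cell type and genotype.

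Hsph1 encodes the Hsp110 protein that acts as nucleotide exchange factor of Hsp70, and lies at chr5:150416862-150438951 (NCBIM37, minus strand). It was at 14.3, 13.5, 16.6 and 15.8 RPKM in mock Trp53+/+ B cells and at 14.0, 13, 15.6 and 14.4 RPKM after IR. The groups overlapped and Hsph1 was not called. It was at 15.4 and 11.3 RPKM in mock Trp53-/- B cells and at 54.4 and 24.1 RPKM after IR. Both irradiated samples lay above all mock samples, and Hsph1 rose by 1.43 (SE 0.27, adjusted p = 0.00127 from limma), or by 0.85 and 2.00 without irradiated replicate 1 or 2. Hsph1 was at 21.6, 18.5, 20.4 and 27.3 RPKM in mock Trp53+/+ non-B cells and at 8.18, 10.2, 11.3 and 10.7 RPKM after IR. Every irradiated sample was below every mock sample, and Hsph1 fell by 1.08 on the log2 scale (SE 0.14, adjusted p = 0.000451), the same call in all 24 other settings. Hsph1 was at 15.8 and 16.5 RPKM in mock Trp53-/- non-B cells and at 53.4 and 39.7 RPKM after IR. It rose by 1.48 (SE 0.20, adjusted p = 0.0184), a call lost without mock replicate 1, mock replicate 2 or irradiated replicate 1 (adjusted p = 0.0763, 0.204 and 0.161) while the fold change stayed between 1.27 and 1.51. It was also lost without the 2 irradiated Trp53+/+ samples with the most receptor genes (adjusted p = 0.0556).

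Dnajb1 encodes the J-domain protein that delivers clients to Hsp70, and lies at chr8:86132074-86135801 (NCBIM37, plus strand). It was at 35.6, 31.0, 37.9 and 33.0 RPKM in mock Trp53+/+ B cells and at 29.2, 26.7, 32.6 and 32.3 RPKM after IR. It was at 35.9 and 31.7 RPKM in mock Trp53-/- B cells and at 70.8 and 33.8 RPKM after IR. Only irradiated replicate 1 was above all mock samples, and Dnajb1 was called in neither genotype of B cells. Dnajb1 was at 44.9, 42.4, 41.1 and 44.6 RPKM in mock Trp53+/+ non-B cells and at 34.4, 32.5, 35.5 and 32.4 RPKM after IR. The irradiated samples lay below all mock samples by a log2 fold change of -0.36 (SE 0.07, adjusted p = 0.00502 from limma), less than the fold threshold. Dnajb1 was at 37.3 and 35.7 RPKM in mock Trp53-/- non-B cells and at 72.0 and 61.3 RPKM after IR. It rose by 0.86 (SE 0.09, adjusted p = 0.0105), a call lost without mock replicate 1, mock replicate 2 or irradiated replicate 1 (adjusted p = 0.0512, 0.184 and 0.135).

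Hsp90aa1 encodes the inducible cytosolic Hsp90 and lies at chr12:111928815-111940938 (NCBIM37, minus strand). It was at 96.2, 89.6, 109.9 and 83.9 RPKM in mock Trp53+/+ B cells and at 111.5, 119.6, 111.9 and 103 RPKM after IR, with overlap and no call. It was at 86.1 and 85.5 RPKM in mock Trp53-/- B cells and at 156 and 116 RPKM after IR. It rose by 0.65 (SE 0.14, adjusted p = 0.00286 from limma), or 0.44 without irradiated replicate 1, which is under the fold threshold. Hsp90aa1 was at 110.3, 100.3, 94.7 and 100.5 RPKM in mock Trp53+/+ non-B cells and at 68.9, 82.3, 71.4 and 69.3 RPKM after IR. The irradiated samples lay below all mock samples by a log2 fold change of -0.47 (SE 0.09, adjusted p = 0.00391), less than the fold threshold. It was at 87.3 and 108 RPKM in mock Trp53-/- non-B cells and at 123 and 126 RPKM after IR, higher in both irradiated samples but not past the test (adjusted p = 0.184).

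Hspa8, the constitutive Hsp70 of the cytosol, lies at chr9:40609067-40613283 (NCBIM37, plus strand). It was at 80.1, 83.6, 101 and 79.5 RPKM in mock Trp53+/+ B cells and at 113, 121, 108 and 99.0 RPKM after IR. The groups overlapped by 1 mock sample, with a log2 fold change of 0.36 (SE 0.09, adjusted p = 0.00608 from limma). Hspa8 was at 81.1 and 79.7 RPKM in mock Trp53-/- B cells and at 122 and 99.9 RPKM after IR, with a log2 fold change of 0.46 (SE 0.13, adjusted p = 0.0144). Both values are under the fold threshold, the second being 0.60 and called (adjusted p = 0.00809) without irradiated replicate 2. In non-B cells, Hspa8 ranged from 76.0 to 89.1 RPKM in mock and from 75.5 to 93.3 RPKM after IR in Trp53+/+ samples, with no difference detected. It was at 82.9 and 88.8 RPKM in mock and at 100.3 and 115 RPKM after IR in Trp53-/- samples, higher in both but not past the test (adjusted p = 0.214).

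Hspd1 and Hspe1 encode the mitochondrial chaperonin Hsp60 and its lid Hsp10, and are read from a shared promoter at chr1:55134679-55145087 (minus strand) and chr1:55144976-55148151 (plus strand) of NCBIM37. The annotated genes overlap by 112 bases, and reads there cannot be given to a strand in these libraries, which were not made by a stranded kit. Hspd1 was at 53.5, 48.7, 58.3 and 45.1 RPKM in mock Trp53+/+ B cells and at 69.4, 74.6, 72.1 and 63.9 RPKM after IR. Every irradiated sample was above every mock sample, with a log2 fold change of 0.45 (SE 0.10, adjusted p = 0.00228 from limma) that is under the fold threshold. Hspd1 was at 43.7 and 46.2 RPKM in mock Trp53-/- B cells and at 109.6 and 82.0 RPKM after IR. It rose by 1.07 (SE 0.14, adjusted p = 7.93e-05), the same call in all 22 other settings. Hspd1 was at 63.1, 55.2, 48.5 and 49.2 RPKM in mock Trp53+/+ non-B cells and at 31.2, 40.7, 35.2 and 40.2 RPKM after IR. The irradiated samples lay below all mock samples by a log2 fold change of -0.55 (SE 0.13, adjusted p = 0.0136), just under the fold threshold, which it passed without mock replicate 3 or 4 or irradiated replicate 2 or 4, at -0.59 to -0.60. Hspd1 was at 46.6 and 63.9 RPKM in mock Trp53-/- non-B cells and at 89.8 and 77.3 RPKM after IR, with a log2 fold change of 0.61 (SE 0.18, adjusted p = 0.136), not past the threshold.

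Hspe1 followed Hspd1 at smaller folds. Hspe1 was at 50.9, 48.5, 62.8 and 43.8 RPKM in mock Trp53+/+ B cells and at 61.5, 66.7, 65.8 and 58.6 RPKM after IR, a log2 fold change of 0.30 (SE 0.11, adjusted p = 0.0422 from limma). It was at 45.3 and 46.2 RPKM in mock Trp53-/- B cells and at 82.2 and 58.8 RPKM after IR. It rose there by 0.60 (SE 0.16, adjusted p = 0.0105), a call lost without irradiated replicate 1 (0.36, adjusted p = 0.134) and without mock replicate 1 (0.58, adjusted p = 0.0559), and under the fold threshold with median-ratio scaling (0.55) and quantile normalization (0.53). Hspe1 was at 51.6, 44.6, 44.6 and 47.7 RPKM in mock Trp53+/+ non-B cells and at 37.3, 43.3, 36.0 and 44.4 RPKM after IR. All irradiated samples were below all mock samples by a small margin, and the adjusted p was 0.0868. It was at 46.6 and 54.5 RPKM in mock Trp53-/- non-B cells and at 70.8 and 67.4 RPKM after IR (adjusted p = 0.118).

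Hspa5 encodes BiP, the Hsp70 of the ER lumen, and lies at chr2:34627490-34632051 (NCBIM37, plus strand). It was at 113, 112, 128 and 99.95 RPKM in mock Trp53+/+ B cells and at 135, 145, 131 and 125 RPKM after IR. The log2 fold change of 0.25 (SE 0.08, adjusted p = 0.0197 from limma) and that of 0.38 (SE 0.11, adjusted p = 0.0162) in Trp53-/- B cells were under the fold threshold. There Hspa5 was at 106 and 104 RPKM in mock and at 145 and 129 RPKM after IR. It ranged from 94.0 to 101 RPKM in mock Trp53+/+ non-B cells and from 85.2 to 113 RPKM after IR, with no difference detected. It was at 90.4 and 97.8 RPKM in mock Trp53-/- non-B cells and at 115 and 114 RPKM after IR, higher in both irradiated samples and not past the test (adjusted p = 0.269). Its Pearson r to Hspa1a over the 24 samples, -0.14, was the lowest of any pair of members.

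Hspb1 encodes the small heat-shock protein Hsp25, a holdase that binds unfolded proteins without ATP, and lies at chr5:136363789-136365433 (NCBIM37, plus strand). Its highest value in the series was 2.62 RPKM, so that every value rests on few reads. Hspb1 was at 0.66, 0.414, 0.254 and 0.909 RPKM in mock Trp53+/+ B cells and at 1.57, 2.62, 0.942 and 0.125 RPKM after IR. The irradiated group held both the highest and nearly the lowest of all 24 values, with a log2 fold change of 0.59 (SE 0.43, adjusted p = 0.265 from limma). That value was 1.03 and called (adjusted p = 0.0229) without irradiated replicate 4, and -0.27 with the receptor share as a covariate. Hspb1 passed the filter of 1 RPKM in B cells only through irradiated replicates 1 and 2. The call without replicate 4, the lowest irradiated sample, can therefore not be read as a rise. The 2 irradiated samples with the highest Hspb1 are the 2 with the largest receptor shares of that group, and the part of stray reads in these values was not tested. Hspb1 was at 0.635 and 0.11 RPKM in mock Trp53-/- B cells and at 0.989 and 1.77 RPKM after IR, with a log2 fold change of 1.14 that did not pass the test (adjusted p = 0.154). In non-B cells it lay between 0.272 and 1.02 RPKM in mock and between 0.665 and 2.33 RPKM after IR over both genotypes. Hspb1 was called in none of the 4 comparisons of IR with mock.

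No chaperone passed the test between the genotypes without IR. Between mock Trp53-/- and mock Trp53+/+ cells, 0 of 10 members were called by limma in B cells, where 0.0506% of all genes were called (0.0217% higher and 0.0289% lower), and 0 of 10 in non-B cells, where 0.0428% were (0.0143% higher and 0.0285% lower). Counts at an unadjusted p under 0.05, here and below, are given without the share of all genes and cannot be read against a background. At that level there were 0 members in B cells, and 4 in the non-B fraction, Hspa1a, Hspa1b, Hsph1 and Dnajb1. Those 4 had lower means in mock Trp53-/- than in mock Trp53+/+ non-B cells, at 1.18 against 3.72, 1.4 against 5.54, 16.2 against 22.0 and 36.5 against 43.3 RPKM. By the samples, these 4 lay lower in both Trp53-/- than in all 4 Trp53+/+ mock non-B samples (6.24% of all genes, with 9.4% higher), Hspa1a by a narrow margin, at 1.33 against 1.34 RPKM. Hspa1a also lay lower without overlap in mock Trp53-/- B cells (8.39% of all genes, with 10.1% higher), at 0.284 against 0.298 RPKM, a gap smaller than the worth of a single read. In these mock B cells 0 of 10 members had a positive log2 difference, with a median of -0.17 beside 0.008 over all genes. The members share the same samples, so their signs are not separate results. These mock levels enter the differences of responses given next.

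The question of whether p53 changed the response was put as a difference of responses, Trp53-/- minus Trp53+/+. In non-B cells the response was higher in Trp53-/- cells for 5 of 10 members, Hsph1, Dnajb1, Hspd1, Hsp90aa1 and Hspe1, where 7.35% of all genes differed (3.37% in this direction and 3.98% in the other). Hsph1 differed by 2.56 (SE 0.24, adjusted p = 0.000187 from limma), since it fell in Trp53+/+ and rose in Trp53-/- cells. Dnajb1 differed by 1.21 (SE 0.12, adjusted p = 0.000194), Hspd1 by 1.15 (SE 0.22, adjusted p = 0.0114), Hsp90aa1 by 0.83 (SE 0.15, adjusted p = 0.00885) and Hspe1 by 0.68 (SE 0.15, adjusted p = 0.0229). Hsph1, Dnajb1 and Hsp90aa1 kept their calls in all 23 other settings. Hspd1 lost it without irradiated Trp53-/- replicate 1 (adjusted p = 0.0679), and Hspe1 without that replicate, irradiated replicate 2 or mock replicate 1 of the Trp53-/- cells (adjusted p = 0.101, 0.0586 and 0.0915). With the receptor share as a covariate, the calls of Hspd1 (1.10, adjusted p = 0.0515) and Hspe1 (0.59, adjusted p = 0.0908) were lost as well. For Hspa1a the difference was 1.32 (95% confidence interval -0.34 to 2.99) and for Hspa1b 2.01 (0.27 to 3.75, adjusted p = 0.143), and neither was called.

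The samples show where the difference lies. After IR, 7 of 10 members were higher in both Trp53-/- than in all 4 Trp53+/+ non-B samples (28.6% of all genes, with 24.9% lower), namely the 5 above with Hspa8 and Hspa5. Hspd1, for one, was at 77.3 and 89.8 RPKM against 31.2 to 40.7 RPKM, and Hsp90aa1 at 123 and 126 RPKM against 68.9 to 82.3 RPKM. Hspa1a, Hspa1b and Hspb1 overlapped between the irradiated genotypes.

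In B cells the response was higher in Trp53-/- cells for 2 of 10 members, where 18.8% of all genes differed (10.6% in this direction and 8.14% in the other). Hsph1 differed by 1.5 (SE 0.33, adjusted p = 0.0092 from limma) and Hspd1 by 0.62 (SE 0.17, adjusted p = 0.0245). The call of Hsph1 was lost without mock Trp53-/- replicate 2 (1.28, adjusted p = 0.0556). That of Hspd1 was lost without mock replicate 1 or 2 (adjusted p = 0.102 and 0.065) or irradiated replicate 1 (0.41, adjusted p = 0.14) of the Trp53-/- cells, and under median-ratio scaling (0.57, adjusted p = 0.0593). Dnajb1 differed by 0.71 (adjusted p = 0.116) and Hspa1b by 0.96 (adjusted p = 0.491), not past the threshold, and without irradiated Trp53-/- replicate 2 both were called, at 1.24 and 2.47. Without irradiated replicate 1 instead, the difference of Hspa1b was -0.55. After IR, Dnajb1, Hsph1 and Hspd1 were higher in both Trp53-/- than in all Trp53+/+ B samples (31.2% of all genes, with 18.5% lower). The 2 irradiated Trp53-/- B samples stood apart from each other in the chaperones, with summed RPKM of the 10 members of 756 in replicate 1 and 547 in replicate 2, against 405 and 415 in mock.

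**Figure D3:**
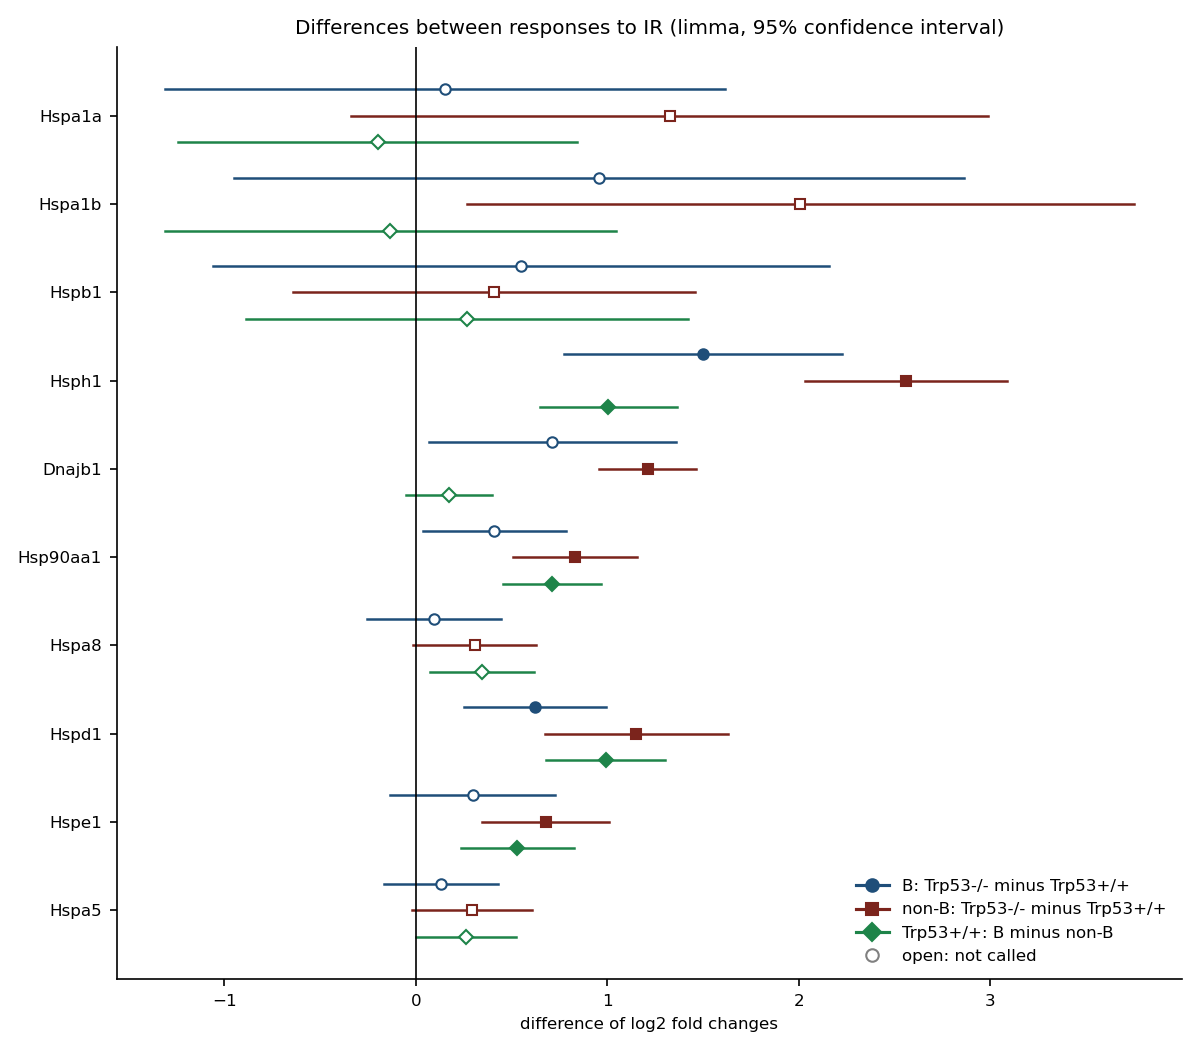
Difference of log2 fold changes after IR for each member, Trp53-/- minus Trp53+/+ in B cells (circles) and non-B cells (squares), and B minus non-B in Trp53+/+ cells (diamonds); bars are 95% confidence intervals from limma and filled symbols have an adjusted p below 0.05. In non-B cells the genotype difference of Hsph1 is 2.56 and that of Dnajb1 1.21.

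B and non-B cells were compared within Trp53+/+ mice in a fit over their 16 samples with 14598 genes. In mock cells, 2 of 10 members were lower in B cells, where 24.6% of all genes were called (17.2% lower and 7.38% higher), Hspa1a by a log2 difference of -1.91 (SE 0.35, adjusted p = 0.00032 from limma) and Hspa1b by -1.38 (SE 0.39, adjusted p = 0.00967). Under quantile normalization the latter was -0.91 with an adjusted p of 0.0723. Dnajb1 and Hsph1 had differences of -0.33 and -0.52, with adjusted p-values of 0.0021 and 0.00225. With Hspa1a they were the 3 members whose B samples all lay below all non-B samples (21.7% of all genes, with 20% the other way). Both were under the fold threshold, which Hsph1 passed at -0.59 without mock non-B replicate 2.

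After IR, 5 of 10 members differed between Trp53+/+ B and non-B cells, where 35.6% of all genes were called (15.3% higher and 20.3% lower in B cells). Hspd1 was higher in B cells by 0.92 (SE 0.10, adjusted p = 1.21e-06), Hspe1 by 0.65 (SE 0.10, adjusted p = 3.24e-05) and Hsp90aa1 by 0.61 (SE 0.08, adjusted p = 1.21e-05), all from limma. Hspa1a and Hspa1b were lower in B cells, by -2.10 (SE 0.35) and -1.52 (SE 0.39). Hsp90aa1 fell under the fold threshold without irradiated B replicate 2 (0.58) and under median-ratio scaling (0.57) and quantile normalization (0.35) and without the samples with the most receptor genes (0.51), and Hspe1 under quantile normalization (0.51). Without the 2 irradiated samples of each cell type with the most receptor genes, Hspa1b was not called (-1.18, adjusted p = 0.137). Hsph1, at 0.49, was called there (0.69) and under quantile normalization (0.62). By the samples, 6 members lay higher in B cells without overlap (26.8% of all genes) and 2 lower (24.6%).

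The responses themselves differed between the cell types in Trp53+/+ mice for 4 of 10 members, where 28% of all genes differed (15.4% toward B cells and 12.6% toward non-B cells). Hsph1 responded higher in B cells by 1.01 (SE 0.17, adjusted p = 0.00042 from limma), Hspd1 by 0.99 (SE 0.15, adjusted p = 0.000152), Hsp90aa1 by 0.71 (SE 0.12, adjusted p = 0.000443) and Hspe1 by 0.53 (SE 0.14, adjusted p = 0.00995). These 4 calls held in all 27 other settings. For Hspa1a the difference was -0.20 with a 95% confidence interval from -1.24 to 0.84, too wide to say that both cell types responded alike.

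Markers of other cells moved with these results. In Trp53+/+ non-B cells, 8 of the 11 erythroid markers tested fell after IR, with a list median of -2.35, and their summed RPKM went from between 208 and 569 in mock to between 56.6 and 150 after IR. Of 12 proliferation genes 3 fell, with a median of -1.25, and sums of 125 to 466 RPKM in mock and 80.3 to 167 after IR. Of 10 B cell markers 2 fell, Blk and Cd22, with sums of 382 to 609 RPKM in mock and 249 to 513 after IR. In Trp53-/- non-B cells no gene of these 3 lists was called by limma, at an unadjusted p under 0.05 for 0 erythroid, 0 proliferation and 2 B cell markers, and erythroid sums were 112 and 428 RPKM in mock and 174 and 156 after IR. No erythroid, proliferation or B cell marker was at 0 RPKM in all samples of any group. Among the 10 T cell, 7 NK cell, 10 macrophage and monocyte, 7 neutrophil, 6 megakaryocyte and 6 plasma cell markers in the files, Cd8a and Cd8b1 fell and the monocyte gene Cd14 rose in Trp53+/+ non-B cells, and the megakaryocyte gene Ppbp fell in Trp53-/- non-B cells. All 6 megakaryocyte markers had negative values and an unadjusted p under 0.05 there, with a median of -1.13 and sums of 50.5 and 67.7 RPKM in mock and 17.8 and 27.2 after IR, and Ppbp and Pf4 had a called genotype difference. All 7 NK cell markers were negative there too, 4 of them at an unadjusted p under 0.05, with a median of -0.56 and sums of 394 and 433 RPKM in mock and 273 and 317 after IR. The part of these changes in the chaperone levels of irradiated Trp53-/- non-B cells was not tested. Of the same lists, Cd2, Cd8a, Fcgr1 and Emr1 fell and Sdc1 rose in Trp53+/+ B cells, and Cd2, Fcgr1 and Sdc1 fell and Cd14 rose in Trp53-/- B cells. The B cell markers Blk, Fcrla and Cd22 fell in Trp53+/+ B cells, and Blk fell in Trp53-/- B cells. T cell sums in the B cell fraction were 161 to 175 RPKM in mock and 70.5 to 115 after IR in Trp53+/+ samples, and 159 and 184 in mock and 95.7 and 114 after IR in Trp53-/- samples. Of these 10 markers, 4 had positive values in Trp53+/+ and 1 in Trp53-/- B cells, with medians of -0.27 and -0.34. Cd2, which fell in both, was the 1 T cell marker not called lower in mock Trp53+/+ B than in non-B cells, so these sums do not measure T cells alone. The part of cell makeup in the lower chaperone levels of irradiated Trp53+/+ non-B cells was not tested.

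In Trp53+/+ B cells, 7 of 11 erythroid markers and 9 of 12 proliferation genes also fell, with medians of -1.44 and -0.79. The immediate early genes respond within minutes to cell handling and to stress. Their summed RPKM was 560 to 629 in mock and 649 to 1041 in irradiated Trp53+/+ non-B cells, and 479 and 504 in mock and 490 and 565 in irradiated Trp53-/- non-B cells. In B cells it was 373 to 404 in mock and 455 to 542 in irradiated Trp53+/+ samples, and 391 and 435 in mock and 338 and 364 in irradiated Trp53-/- samples. Of the 15 genes, 5 rose in Trp53+/+ cells of each type and Klf2 fell in Trp53+/+ B cells, Junb rose and Klf2 fell in Trp53-/- B cells, and in Trp53-/- non-B cells 0 were called by limma, with 3 at an unadjusted p under 0.05. The part of cell isolation in the Hspa1a and Hspa1b values was not tested.

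**Figure D4:**
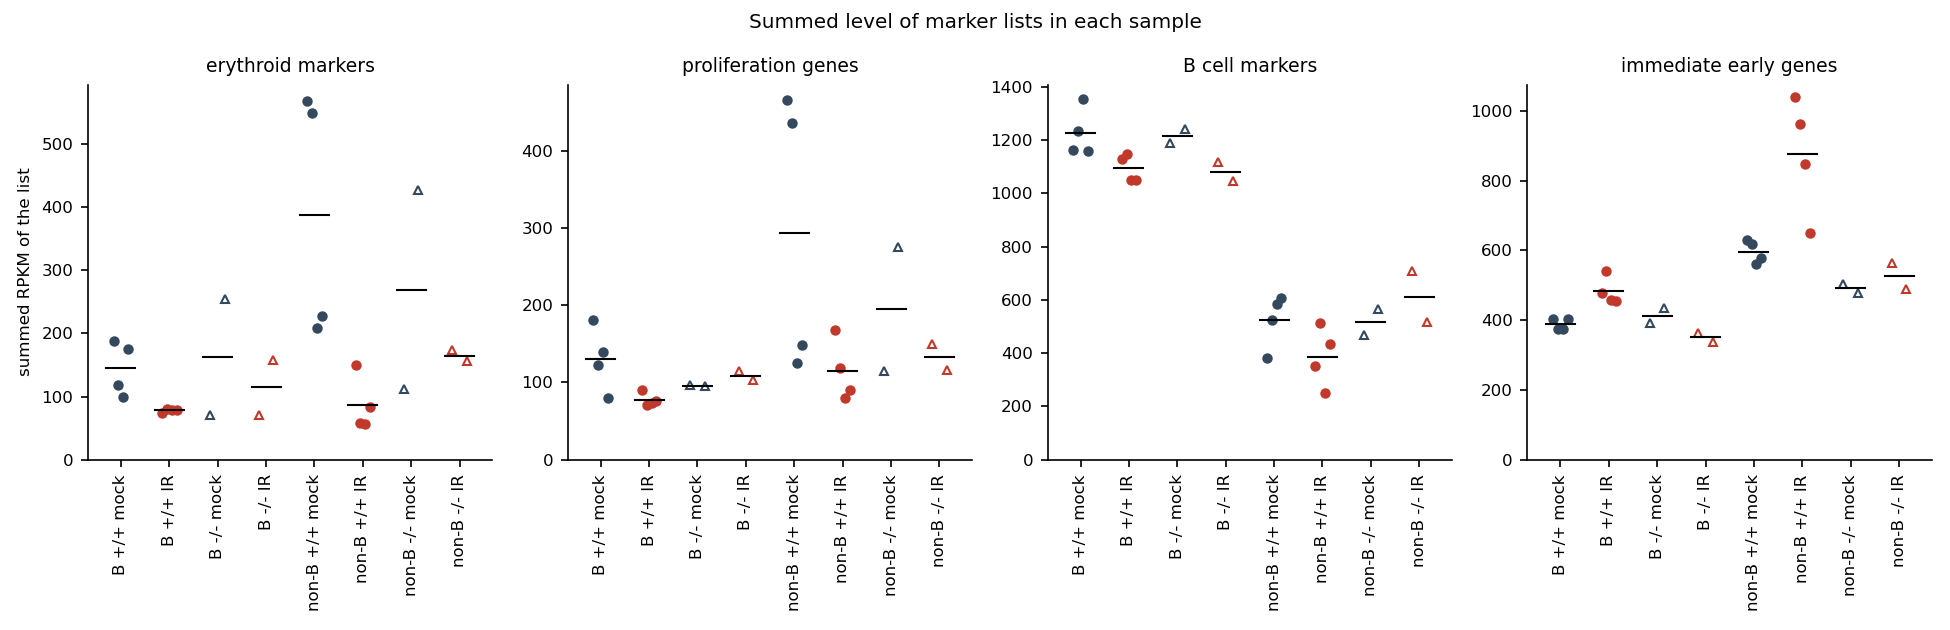
Summed RPKM of 4 marker lists (vertical axes) in each sample of the 8 groups; filled circles are Trp53+/+ samples, open triangles Trp53-/- samples, red is IR, dark grey is mock, and lines are group means. The erythroid sum of Trp53+/+ non-B cells lies between 208 and 569 RPKM in mock and between 56.6 and 150 after IR.

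The rest of the chaperone network was described through lists of related genes, all of them in the files. For comparison, 12.5% of all genes tested were called upward and 12.2% downward in Trp53+/+ B cells, and 13.1% and 11.2% in Trp53-/- B cells. In non-B cells these shares were 5.74% and 4.11% in Trp53+/+ and 0.193% and 0.25% in Trp53-/- cells. The response was higher in Trp53-/- cells for 10.6% of all genes in B and 3.37% in non-B cells, and lower for 8.14% and 3.98%. Shares of all genes at an unadjusted p under 0.05 are not given. Of 18 genes of the Hsp90 family and its co-chaperones, 9 rose in Trp53-/- B cells, among them Fkbp4, Stip1 and Ahsa1, 0 rose and 1 fell in Trp53+/+ B cells, 1 rose in Trp53-/- non-B cells (St13) and 0 were called by limma in Trp53+/+ non-B cells, with 9 at an unadjusted p under 0.05. Their median log2 fold changes were 0.56, 0.26, 0.33 and -0.13, in that order. The response was higher in Trp53-/- cells for 8 of 18 in B and 7 of 18 in non-B cells, and lower for 0 in both. The gene that fell was Ahsa2, from 10.9 ± 0.18 to 7.06 ± 0.99 RPKM (SD, n = 4 each, log2 fold change -0.60, adjusted p = 0.00566 from limma).

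The cytosolic chaperonin CCT folds actin and tubulin, and prefoldin delivers them to it. Of its 14 genes, 7 rose in Trp53-/- B cells, 1 (Cct3) in Trp53-/- non-B cells, and 0 were called by limma in Trp53+/+ cells of either type, with 8 in B and 9 in non-B cells at an unadjusted p under 0.05. Their medians were 0.60 and 0.32 in Trp53-/- B and non-B cells, and 0.23 and -0.30 in Trp53+/+ B and non-B cells. In Trp53+/+ non-B cells 0 of the 14 had a positive value, in Trp53-/- non-B cells 13 had, and for 7 of them, all CCT subunits, the difference was called. In B cells the difference was called for 4 of the 14, all higher in Trp53-/- cells. Of 14 genes of mitochondrial protein folding, 5 rose in Trp53-/- B cells and 0 were called by limma in the other 3 comparisons, with 5 to 8 at an unadjusted p under 0.05 and medians of 0.55 in Trp53-/- B, 0.01 in Trp53+/+ B, 0.15 in Trp53-/- non-B and -0.18 in Trp53+/+ non-B cells. For 6 of these 14 in B and 3 in non-B cells the response was higher in Trp53-/- cells, and for 0 lower.

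Of the other Hsp70 and Hsp110 genes, the response was higher in Trp53-/- cells for 4 and lower for 1, Hspa2, in each cell type, the 4 being Hspa4l, Hyou1 and Hspa4 in both, with Hspa13 in B and Hspa9 in non-B cells. In Trp53+/+ B cells, Hspa2 and Hspa1l rose and Hspa12a and Hspa4l fell, of 10 tested. Hspa2, known for its role in male germ cells, went from 5.52 ± 0.72 to 21.5 ± 4.47 RPKM (SD, n = 4 each, log2 fold change 1.85, adjusted p = 7.73e-07 from limma) in Trp53+/+ B cells and from 3.92 ± 0.85 to 10.7 ± 2.37 RPKM (1.34, adjusted p = 0.00204) in Trp53+/+ non-B cells. In Trp53-/- cells its log2 fold change was 0.12 in B and -0.07 in non-B cells, and the genotype difference was called in both, at -1.73 (adjusted p = 0.000807) and -1.4 (adjusted p = 0.0456). Hspa4l, an Hsp110 gene as Hsph1 is, fell from 8.32 ± 0.18 to 2.45 ± 0.18 RPKM (log2 fold change -1.58, adjusted p = 5.14e-05) in Trp53+/+ B cells and from 12.6 ± 2.65 to 7.30 ± 0.31 RPKM (-0.73, adjusted p = 0.0161) in Trp53+/+ non-B cells. In Trp53-/- cells its values were -0.15 in B and 0.56 in non-B cells, with genotype differences of 1.43 (adjusted p = 0.0177) and 1.29 (adjusted p = 0.0275). The irradiated Trp53-/- samples lay far apart in Hspa4l, at 8.08 ± 5.17 RPKM in B and 15.5 ± 5.30 RPKM in non-B cells (SD, n = 2 each). Hspa12a, an atypical Hsp70, went from 2.36 ± 0.40 to 0.454 ± 0.25 RPKM in Trp53+/+ B cells, a log2 fold change of -1.61. It also fell in Trp53-/- B cells, from a mean of 1.44 to 0.357 RPKM (-1.20, adjusted p = 0.0067 from limma), and its genotype difference of 0.41 was not called (adjusted p = 0.478).

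Among 9 nucleotide exchange factors, Sil1 and Hspbp1 rose in Trp53+/+ B cells, by 0.74 and 0.60, and 4 rose in Trp53-/- B cells, Hspbp1 among them. Of the 9, the response was higher in Trp53-/- cells for 4 in B and 1 in non-B cells, and lower for 0 in both. Sil1, which serves Hspa5 in the ER, went from 15.6 ± 1.23 to 26.4 ± 0.85 RPKM (SD, n = 4 each). Its log2 fold change in Trp53-/- B cells was 0.54 (adjusted p = 0.000775 from limma), under the fold threshold, and its genotype difference was not called (adjusted p = 0.254). Bag2 fell from 10.3 ± 5.67 to 1.13 ± 0.22 RPKM in Trp53+/+ non-B cells, a log2 fold change of -2.58 (adjusted p = 0.00313 from limma), and its difference between genotypes was not past the threshold (adjusted p = 0.0542). Of 22 other J-domain genes, 4 rose in Trp53-/- B cells, where 13.1% of all genes did, and 0 were called by limma in the other 3 comparisons, with 7 to 11 at an unadjusted p under 0.05 over all 4. Their response was higher in Trp53-/- cells for 4 of 22 in B and 3 of 22 in non-B cells, and lower for 1 and 0. Of 22 genes of ER folding, 1 was called in Trp53+/+ B cells, the stress transcription factor Ddit3, which rose from 30.3 ± 1.55 to 45.8 ± 4.5 RPKM. In Trp53-/- B cells Ddit3 went from 30.9 ± 0.12 to 45.9 ± 1.26 RPKM (SD, n = 2 each). That log2 fold change of 0.56 (adjusted p = 0.00063 from limma) was just under the fold threshold, and the genotype difference was -0.02 (adjusted p = 0.926). Hyou1, Sdf2l1 and Manf were the 3 called upward in Trp53-/- B cells, where 13.1% of all genes were. In non-B cells 0 were called by limma, with 6 in Trp53+/+ and 3 in Trp53-/- cells at an unadjusted p under 0.05. Genes of ER folding responded higher in Trp53-/- cells for 4 of 22 in B and 2 of 22 in non-B cells, and lower for 0 and 1. Of the 4 heat-shock factors, Hsf5 alone was called, upward in B cells of both genotypes, at 0.243 ± 0.08 RPKM in mock and 1.07 ± 0.44 RPKM after IR in Trp53+/+ cells. Hsf5 passed the filter of 1 RPKM only through irradiated samples, where it was high, so its call is biased upward. At an unadjusted p under 0.05 were all 4 in Trp53+/+ B cells, 3 of them positive, and 2 in Trp53-/- B cells, with medians of 0.40 and 0.41. In non-B cells 3 were tested, with 0 in Trp53+/+ and 1 in Trp53-/- cells at that level. Of 8 other small heat-shock proteins, 3 were tested in B and 2 in non-B cells, and 0 were called by limma, with 1 at an unadjusted p under 0.05, in Trp53-/- non-B cells.

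**Figure D5:**
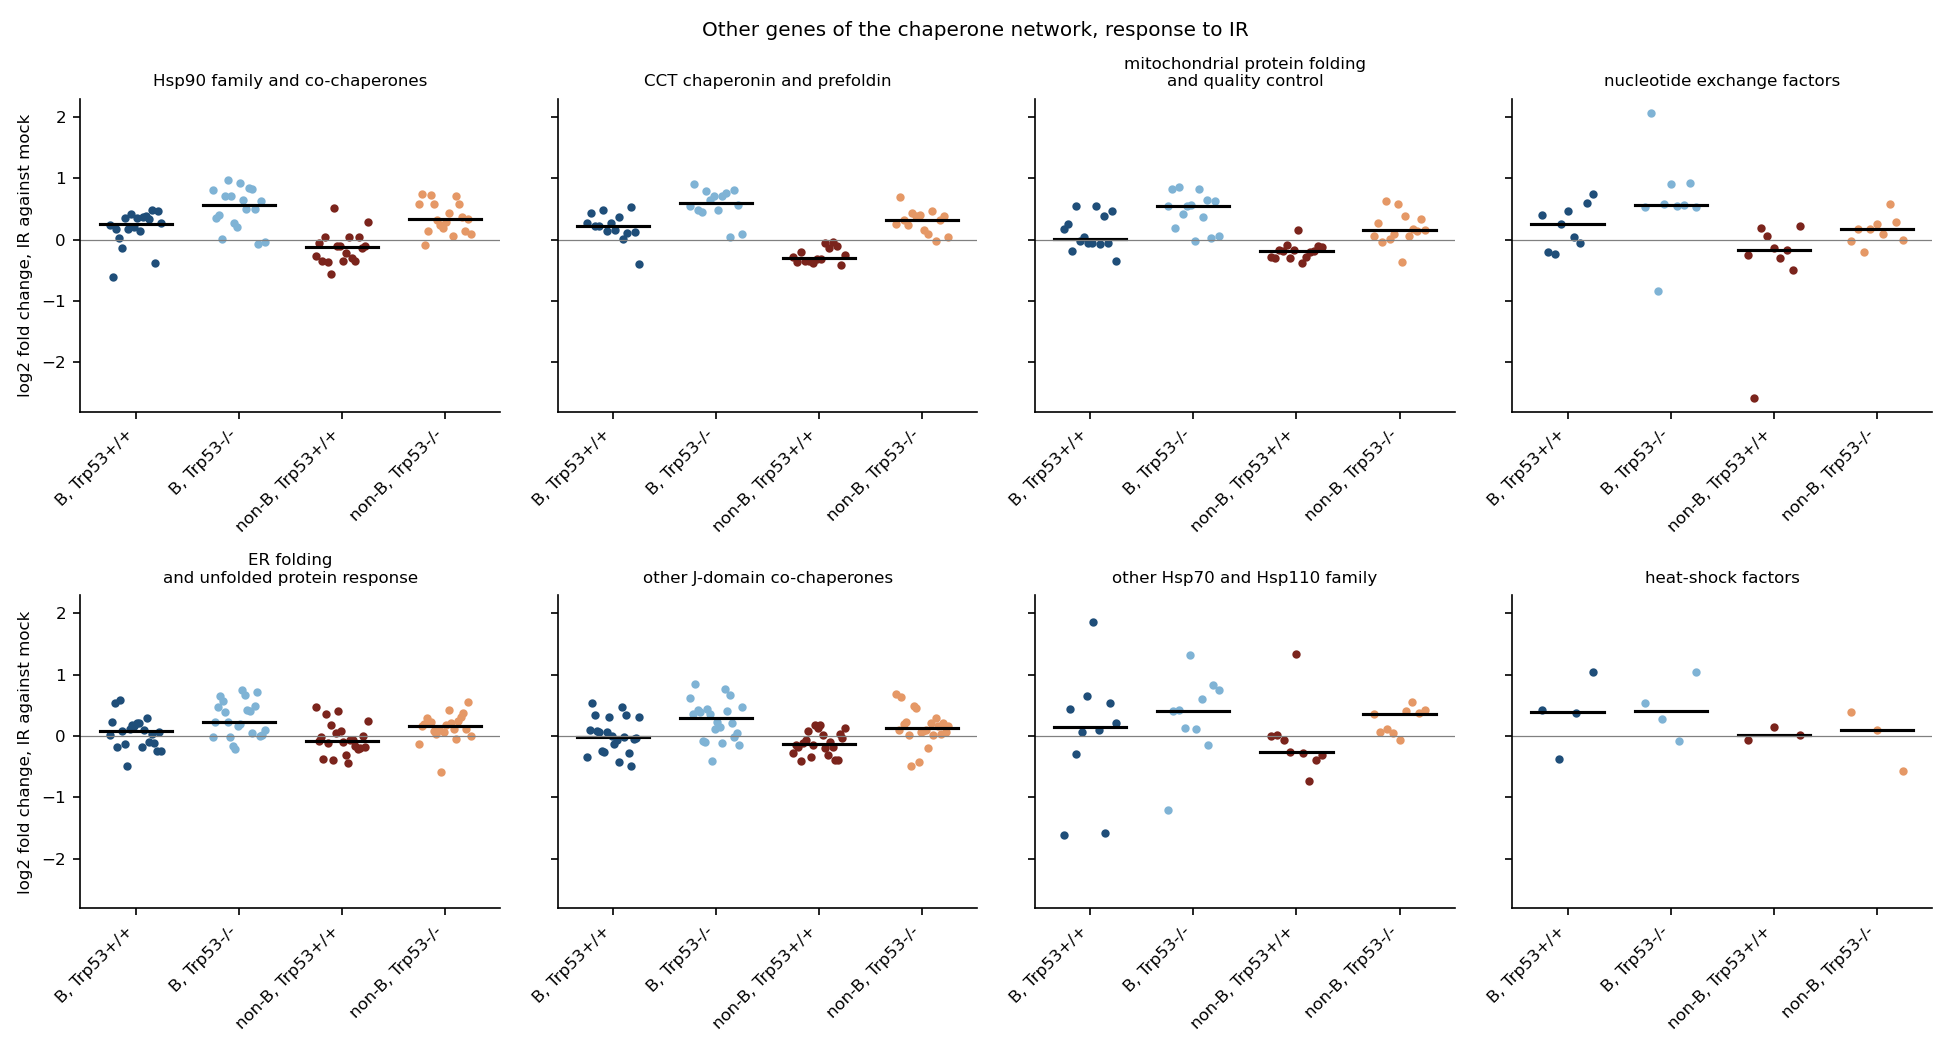
log2 fold change of RPKM + 0.5 after IR (vertical axis) for the tested genes of 8 lists of the chaperone network in the 4 combinations of cell type and genotype; points are genes and black lines are list medians. The median of the CCT chaperonin and prefoldin genes is -0.30 in Trp53+/+ and 0.32 in Trp53-/- non-B cells.

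Over the 24 samples, which share groups and cell makeup, 5 pairs of members were most alike. On the log2 scale, Pearson's r was 0.97 for Hsp90aa1 and Hspd1, 0.96 for Hspa1a and Hspa1b, 0.95 for Hspe1 and Hspd1, 0.92 for Hsp90aa1 and Hspe1 and 0.89 for Dnajb1 and Hsph1. With each group's mean taken off, the same pairs had 0.85, 0.95, 0.86, 0.87 and 0.85. Of the whole table, the genes most like Hspd1 were Ptges3 (0.97), an Hsp90 co-chaperone, Hsp90aa1, and the CCT subunits Cct7, Cct6a and Cct3 (0.95 to 0.96). Those most like Hsph1 were Chordc1 (0.93), a co-chaperone of Hsp90, Dnaja1, Dnajb1, Tmem33 and Ipo9. Those most like Hspa1b were Hspa1a, P4ha1 (0.85), a subunit of collagen prolyl hydroxylase, Mfsd7b, Ets2 and Slc5a3. Hspa5 had Nedd8 (0.94), Atf4 (0.93), the transcription factor of the amino acid and ER stress response, Sf3b2, Calr (0.92), a lectin chaperone of the ER, and Snora68 nearest. By Spearman's rho, Hspa1a and P4ha1 stayed nearest to Hspa1b and Atf4, Nedd8, Sf3b2 and Calr near to Hspa5, whereas the 5 genes nearest to Hsph1 were others, led by Noa1 (0.92). With each group's mean taken off, the genes nearest to Hspd1 were Canx (0.92), Uba2, Psma5, Sf3b6 and Cox7a2, and those nearest to Hspa5 were Slc25a5 (0.90), Syf2, Cox4i1, Clta and Ly6a, none of them among the genes named above for these 2 members. On that measure Hsph1 had P4ha1 (0.92), Chordc1, Ubqln1, Dnajb1 and A230046K03Rik nearest, and Hspa1b had Hspa1a, Tmem33 (0.81), Ubqln1, P4ha1 and Lpxn.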

How the data were processed

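The authors replaced base calls with a quality below 20 by N, aligned reads of rRNA-depleted TruSeq libraries to mm9 with TopHat (TopHat2 2.0.8 in the submitters' processing notes), kept 1 read of each set of duplicates, counted reads per gene with featureCounts 1.4.5 without strand and deposited RPKM per gene, scaled to the reads on exons. Counts were not used here. Depth was estimated from the steps of low RPKM values and GENCODE exon lengths, with 60.7 to 74.0% of those values within 0.1 of a whole read, so no count test was run.

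From the deposited RPKM of the 10 members and all other genes, limma 3.58.1 (R 4.3.3, mean-variance trend) was fitted to log2(RPKM + 0.5), for genes above 1 RPKM in a Trp53+/+ sample of the fit, with Benjamini-Hochberg adjustment over all genes tested. The script was tested on simulated data. Single values were compared by exact permutation tests. The members and gene lists were chosen with earlier results of these data known. Of the other lists' genes, up to 3 of each with the largest called change in Trp53+/+ cells of each type were named with their values, and further names give the members of small counts, chosen after their values were seen. Alternatives covered pseudocounts, filters, scalings, receptor share, blocks and each sample left out.

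Same-numbered mock and irradiated Trp53+/+ non-B samples deviated together (r of 0.156 to 0.323 in 4 pairs), although they cannot be 1 mouse, and the replicate block changed no member's call there. No other comparison of 4 pairs had every r over 0.1. Between B and non-B samples r ranged from -0.102 to 0.351, and the labels do not say whether these share a mouse.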

Additional observations from a re-analysis of the deposited data

Results flagged for a closer look

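Of the 10 members, the IR response of 5 differed between genotypes in non-B cells, of 2 in B cells, and of 4 between cell types. Each was a limma test of the difference itself with adjustment over all genes. Over all genes the shares were 7.35% in non-B cells, 18.8% in B cells and 28% between cell types. In the direction of the members they were 3.37%, 10.6% and 15.4%. The 2 of 10 members in B cells were thus close to the 18.8% of all genes. Whether the members exceeded these shares was not tested. In non-B cells the log2 fold change was higher in Trp53-/- than in Trp53+/+ cells by 2.56 for Hsph1, 1.21 for Dnajb1, 1.15 for Hspd1, 0.83 for Hsp90aa1 and 0.68 for Hspe1. In B cells it was higher in Trp53-/- cells by 1.5 for Hsph1 and 0.62 for Hspd1. In Trp53+/+ mice it was higher in B than in non-B cells by 1.01 for Hsph1, 0.99 for Hspd1, 0.71 for Hsp90aa1 and 0.53 for Hspe1. These comparisons share samples, the Trp53+/+ B cells and the Trp53+/+ non-B cells each entering 2 of them. Over 40 tests of a sample standing far from the rest of its group of 4, there were 0 hits.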

How the results depend on the processing

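Counts of called members moved as follows. In Trp53+/+ B cells (main count 1) it was 2 with the Trp53+/+ samples fitted alone and 1 to 2 with each sample left out. In Trp53-/- B cells (6) it was 3 under quantile normalization and 2 to 8 with each sample left out, and for the genotype difference in B cells (2) it was 1 under median-ratio scaling, 4 under quantile normalization and 0 to 5. In Trp53+/+ non-B cells (2) it was 1 with the receptor share as a covariate, 1 without the samples with the most receptor genes, and 1 to 3. In Trp53-/- non-B cells (2) it was 1 without those samples and 0 to 3, and for the genotype difference in non-B cells (5) it was 3 with the covariate and 3 to 5. Between mock B and non-B cells (2) it was 1 under quantile normalization. The signs of Hspb1 in Trp53+/+ B cells (-0.27 with the covariate) and of the B cell genotype difference of Hspa1b (-0.55 without irradiated Trp53-/- replicate 1) turned, and neither was called. Without irradiated Trp53-/- replicate 2 the latter was 2.47 and called. The cause was not tested.

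With the replicate block the counts for Trp53+/+ cells, Trp53-/- cells and their difference were 1, 5 and 2 among B cells and 2, 2 and 5 among non-B cells, 0 for both mock genotype comparisons, and 2 in mock, 5 after IR and 5 for the responses between cell types (main count 4 for the last). The block ended the call of Hspa1a in Trp53-/- B cells (adjusted p = 0.0506 from limma) and added 1 call for the responses between cell types. A block within treatment, added after seeing the data, gave 2, 5 and 5 between cell types. Same-numbered Trp53-/- non-B samples deviated oppositely (r = -0.255), and with their numbers crossed, an alternative also chosen after seeing the data, the non-B counts were 3, 4 and 5.

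Over all genes, the 62 calls in Trp53-/- non-B cells became 24 under quantile normalization, 36 without a filter, 17 with the block, 152 with the crossed block and 5 without the samples with the most receptor genes, and from 0 to 38 without single samples (Trp53-/- mock replicates 1 and 2 and IR replicates 1 and 2, and Trp53+/+ mock replicates 2, 3 and 4 and IR replicate 3). The 1031 genotype differences in non-B cells became 307 to 617 without any 1 of the Trp53-/- samples or irradiated Trp53+/+ replicate 3, and the 2594 in B cells 1257 to 1349 without Trp53-/- mock replicate 1 or 2 or IR replicate 1. The 6 calls between mock non-B genotypes became 11 with the block, 13 with the crossed block and 3 without Trp53-/- replicate 1, and the 7 of B cells 13 without Trp53+/+ replicate 4. With the covariate the 1381 calls in Trp53+/+ non-B cells became 511, and the genotype differences 402. No filter shifted the median of all genes by over 0.1 on the log2 scale in Trp53+/+ B cells (0.11) and for the genotype differences (-0.14 in B and -0.11 in non-B cells). Of the calls between B and non-B cells, 30.03% in mock and 43.0% after IR were higher in B cells, and 50.7% and 55.3% under quantile normalization. Of the genotype differences in B cells, 56.6% were higher in Trp53-/- cells, and 44.2% under median-ratio scaling. Of the calls in Trp53-/- non-B cells, 43.5% were upward, 54.4% under median-ratio scaling and 62.5% under quantile normalization. With 2 Trp53-/- samples a group, leaving 1 out assumes that the lone sample varies like the other groups. Depth limits Hspb1 most, where a single read is worth up to 0.206 RPKM.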
